A study of Rattus norvegicus with 9 samples.

Results

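The BTB and SCAN zinc finger genes are a group of transcription factor genes that were followed here in the superior mesenteric artery (SMA) of the rat, the vessel that feeds most of the small intestine. Members were chosen by symbol, as Zbtb, Zscan or Zkscan followed by a digit, with Zbtb16 left out. This gave 53 of the 37203 genes in the deposited count table, namely 38 Zbtb, 10 Zscan and 5 Zkscan genes. The family was put forward because Zbtb26 and Zscan12 were past the thresholds for 4 h of ischemia against normal in earlier work on these same counts, and Zbtb26 also over the 3 groups together. The values of those comparisons are therefore a description, and nothing is tested on them.

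Arteries came from Sprague-Dawley rats of 8 weeks of age, with 3 libraries of normal rats, 3 at 1 h of ischemia and 3 at 4 h of ischemia. Ischemia was produced by letting blood from the femoral artery under anesthesia with sodium pentobarbital, and time ran from the point at which the model was complete. Whether the normal rats had the anesthesia and the surgery without bleeding is not given in the sources used here. The tissue was the whole vessel, and in bulk RNA fewer cells of a type and less RNA per cell cannot be told apart.

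The members share C2H2 zinc fingers, short folds that read DNA, and differ in the domain that goes with them. The BTB domain of the Zbtb proteins forms dimers and brings in corepressor complexes such as those built on Ncor1 and Bcor, and in related proteins it binds the ubiquitin ligase scaffold Cul3. The SCAN domain of the Zscan proteins joins them to other SCAN proteins, and the Zkscan proteins usually add a KRAB domain, which in many zinc finger proteins recruits the corepressor Trim28. Zbtb8os matched the symbol rule but codes for archease, a cofactor of tRNA ligation, and is no zinc finger protein.

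The promoters of 4 members are printed here because Zbtb26, Zscan12 and Zkscan4 had the lowest log2 fold changes of the family at 4 h against normal, and because Zbtb6 lies beside Zbtb26 with no coding gene between them on the same strand of chromosome 3. Each window holds the 250 bases before and the 50 bases after the gene's start as RefSeq places it on build GRCr8, read 5′ to 3′ on the strand of the gene. Capitals mark letters of the motifs searched on both strands, and each motif shows as its own letters or as their reverse complement. The Zbtb26 window lies at chr3:41617657-41617956, the Zbtb6 window at chr3:41603853-41604152, the Zscan12 window at chr17:47948881-47949180 and the Zkscan4 window at chr17:47808784-47809083, all on the minus strand. RefSeq gives 6 windows for Zscan12, of which the most upstream is shown.
Zbtb26: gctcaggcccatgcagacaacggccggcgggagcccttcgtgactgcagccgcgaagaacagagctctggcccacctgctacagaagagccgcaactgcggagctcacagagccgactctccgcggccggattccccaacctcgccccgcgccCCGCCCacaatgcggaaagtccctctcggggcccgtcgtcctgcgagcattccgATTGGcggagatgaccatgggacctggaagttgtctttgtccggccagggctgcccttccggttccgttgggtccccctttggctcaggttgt
Zbtb6: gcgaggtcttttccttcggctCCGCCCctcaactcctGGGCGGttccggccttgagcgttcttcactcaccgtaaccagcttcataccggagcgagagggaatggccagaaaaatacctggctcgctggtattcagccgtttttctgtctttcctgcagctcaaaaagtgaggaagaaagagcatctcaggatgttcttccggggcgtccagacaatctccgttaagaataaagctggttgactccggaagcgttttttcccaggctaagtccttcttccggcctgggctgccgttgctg
Zscan12: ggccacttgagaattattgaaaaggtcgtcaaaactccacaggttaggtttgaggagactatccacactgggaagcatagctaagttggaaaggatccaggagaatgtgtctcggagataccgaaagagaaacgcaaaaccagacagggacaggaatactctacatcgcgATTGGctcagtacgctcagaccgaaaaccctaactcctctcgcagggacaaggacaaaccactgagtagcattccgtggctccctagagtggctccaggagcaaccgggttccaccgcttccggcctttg
Zkscan4: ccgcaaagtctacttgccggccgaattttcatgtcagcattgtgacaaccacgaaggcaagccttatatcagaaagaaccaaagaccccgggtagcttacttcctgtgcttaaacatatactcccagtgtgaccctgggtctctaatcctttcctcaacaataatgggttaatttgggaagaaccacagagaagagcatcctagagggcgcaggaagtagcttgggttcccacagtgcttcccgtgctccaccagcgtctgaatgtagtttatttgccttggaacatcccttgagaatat

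The motifs searched were the CCAAT box, the GC box GGGCGG, the TATA box TATAAA, the E-box CACGTG, the cyclic AMP element TGACGTCA and the AP-1 element TGANTCA, and none of them holds the letters of another. The Zbtb26 window held 1 CCAAT and 1 GGGCGG, with 66.0% GC. Its neighbour Zbtb6 held 2 GGGCGG and no CCAAT, with 54.3% GC. The Zscan12 window held 1 CCAAT at 51.3% GC, and the Zkscan4 window held none of the 6 motifs at 47.7% GC. No motif stood in the windows of all 3 of these members with the lowest 4 h values. At 1 h Zbtb12 was lower than Zbtb26 and Zscan12, and its window held 2 GGGCGG. RefSeq windows were found for 47 of the 53 members, where the most upstream was taken for each gene. GGGCGG stood in 25 of these 47 windows (53.2%), against 34.9% of 27457 windows of all genes and 36.4% of 354 windows of other zinc finger genes. CCAAT stood in 38.3% of members and 37.8% of all genes, TATAAA in 10.6% and 14.3%, CACGTG in 6.38% and 6.64%, TGANTCA in 6.38% and 7.30%, and TGACGTCA in 2.13% and 1.91%. The median GC share of the member windows was 55.7%, against 52.3% for all genes, and the median ratio of observed to expected CpG was 0.67 against 0.42. A match of letters is a description of the window and not a site of binding.

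Total counts ran from 13114273 to 15504240 per library. Levels are given as CPM, the count of a gene per library size after TMM scaling. All pairs of libraries differed by more than sampling noise (chi-square over its degrees of freedom at least 29.9). The smooth muscle genes that define this tissue were found in every library, at summed levels of 11445 to 69706 CPM. Of the 53 members, 47 passed the filter on low counts and were among the 15482 genes tested. The remaining 6 were Zbtb32, Zbtb33, Zkscan2, Zscan10, Zscan4f and Zscan5b. Zbtb33, which codes for Kaiso, a reader of methylated DNA, had 2 to 11 counts in each library, and Zscan4f had none in any library. Passing the filter needs a level in only 1 group, so the counts below are over the tested members and not over the whole family.

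**Figure D1:**
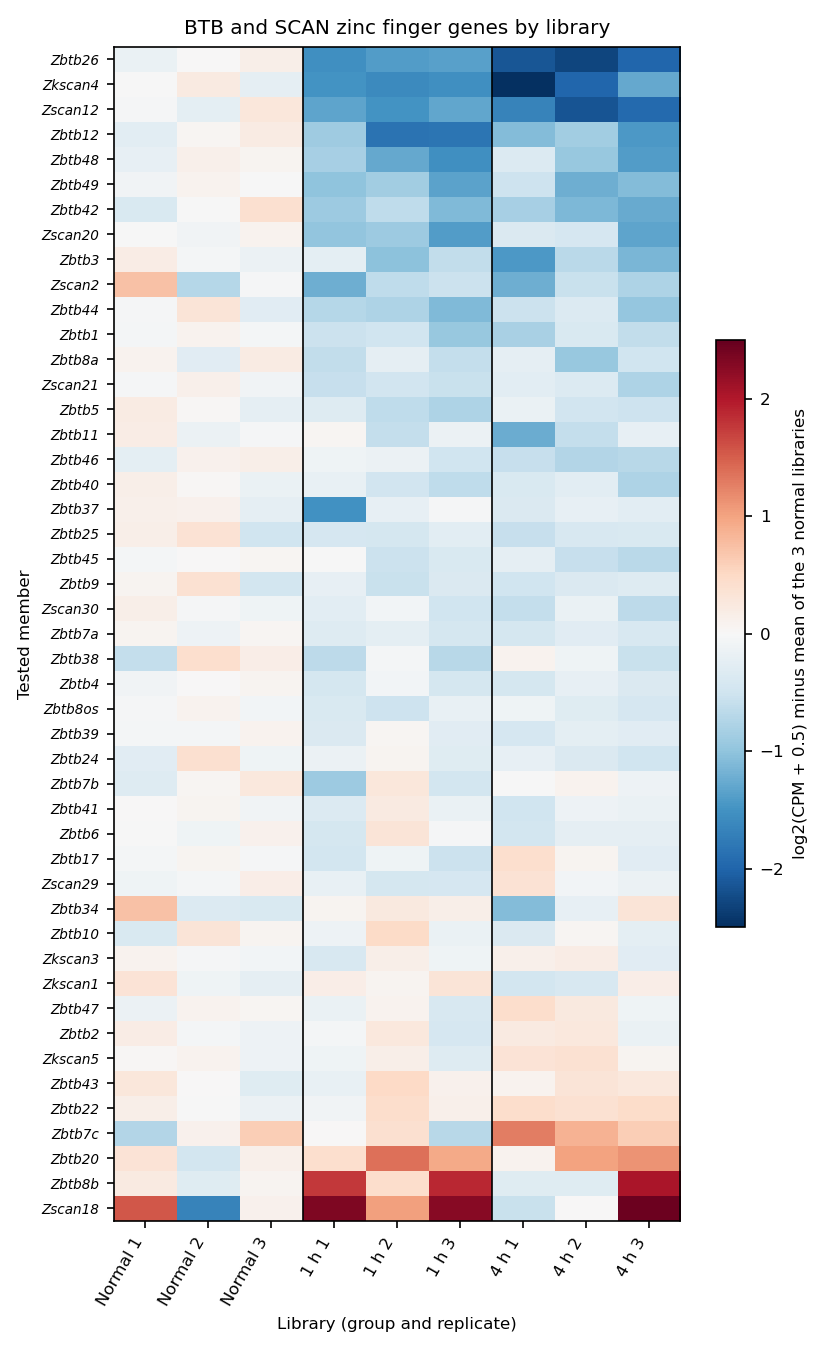
Each row is 1 of the 47 tested members and each column 1 of the 9 libraries, and the color is the log2 of CPM plus 0.5 minus the mean of the 3 normal libraries. Blue rows at the top are lower in all 6 ischemic libraries, led by Zbtb26, Zkscan4 and Zscan12, while Zscan18 and Zbtb8b at the foot are high in 1 h replicates 1 and 3 and in 4 h replicate 3.

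As a group, the family was lower in the ischemic arteries at both times. The summed level of the 47 tested members was 1161 to 1271 CPM in the normal libraries, 896 to 1114 CPM at 1 h and 945 to 1060 CPM at 4 h. Neither ischemic group overlapped the normal group. These sums leave out Zbtb16, which was at 3.14 to 48.2 CPM in normal, 74.3 to 199 CPM at 1 h and 121 to 142 CPM at 4 h. With Zbtb16 added, the summed levels of both ischemic groups would overlap normal. At 1 h against normal, 39 members had a lower and 8 a higher fitted level, with a median log2 fold change of -0.33, while the median over all genes tested was -0.0076. At 4 h against normal, 35 were lower and 12 higher, with a median of -0.38 beside 0.027 over all genes. Without Zbtb26 and Zscan12 the medians were -0.31 at 1 h and -0.36 at 4 h. The log2 fold changes of 32 members were below 0 at both times and those of 5 above 0 at both. Both sets of changes share the 3 normal libraries, so their likeness is not independent.

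Between 1 h and 4 h the family moved little. The median log2 fold change of 4 h against 1 h was -0.036, beside -0.040 for all genes tested, with 26 members lower and 21 higher.

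Zinc finger genes outside the symbol rule gave medians close to those of the family against normal. Some of them, such as Zfp161 and Zfp397, recur in the list of genes with a BTB or SCAN domain below. The 234 tested genes with a Zfp or Znf symbol had median log2 fold changes of -0.29 at 1 h and -0.28 at 4 h against normal. Their summed levels did overlap between groups, at 5809 to 6382 CPM in normal, 5129 to 6673 CPM at 1 h and 5166 to 6203 CPM at 4 h. The 68 tested genes of other BTB proteins (Klhl, Kbtbd, Btbd and Kctd symbols), which have no such DNA-binding fingers, had medians of -0.13 and -0.12. Whether the family differs from these lists was not tested.

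**Figure D2:**
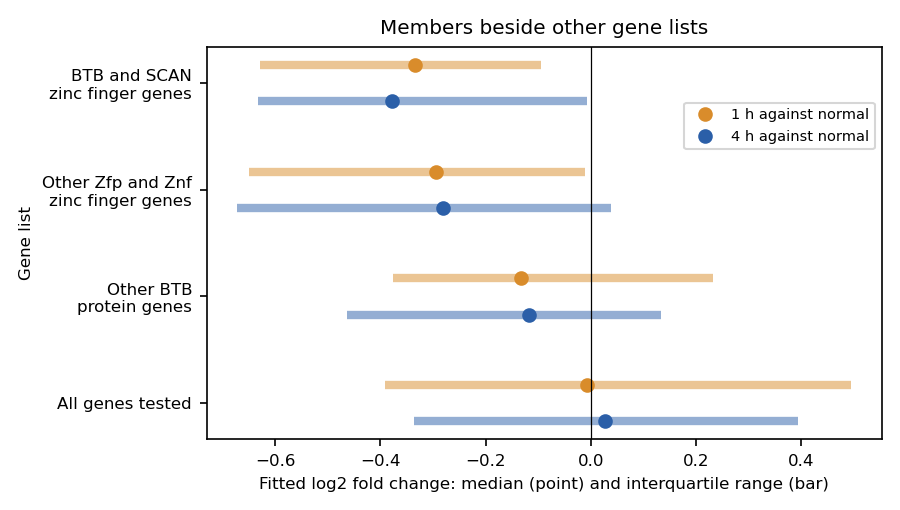
Points are the median and bars the interquartile range of the fitted log2 fold change at 1 h (orange) and 4 h (blue) against normal, for the 47 tested members, 234 other zinc finger genes, 68 other BTB protein genes and all 15482 genes tested. Medians of the members, -0.33 and -0.38, lie beside those of the other zinc finger genes, -0.29 and -0.28, while those of all genes are near 0.

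The test of single genes was edgeR's quasi-likelihood test with Benjamini-Hochberg adjustment over all 15482 genes, and calls needed both an adjusted p below 0.05 and a fold change of more than 1.5. At 1 h against normal, edgeR called 0 of the 47 members, where 9 of all genes were called (0.0581%). DESeq2 called 9 members there, each lower, and 702 of all genes. At an unadjusted p under 0.05 in edgeR, 13 members (27.7%) were lower against 8.67% of all genes, and 1 was higher against 7.98%. The 3 libraries at 1 h lay all below the 3 normal libraries for 18 members (38.3%) and all above for 2, against 13.5% and 12.8% of all genes. Both counts include Zbtb26 and Zscan12, which chose the family. Without them, 11 of 45 members (24.4%) were lower at that p and 16 (35.6%) lay all below normal. For the other Zfp and Znf genes the matching counts were 62 lower (26.5%) and 4 higher at an unadjusted p under 0.05, and 83 of 234 (35.5%) below normal without overlap. The 3 normal libraries also entered the contrast on which the family was chosen.

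At 4 h against normal, edgeR called 2 members, Zbtb26 and Zscan12, beside 0.0904% of all genes, which is the choice itself. Over the 3 groups together it called Zbtb26, beside 0.0388%. At an unadjusted p under 0.05, 13 members were lower and 1 higher, beside 7.35% and 5.07% of all genes. For 23 members the 4 h libraries lay all below normal and for 1 all above, beside 10.8% and 7.93%. Nothing is read from these counts, since this contrast chose the family. The adjusted p was 0.0342 for Zscan12, the last member inside the threshold, and 0.116 for Zkscan4, the first outside it. Of 9 fits without 1 library each, 2 kept the call of Zbtb26 (without 1 h replicate 2 and without 4 h replicate 3) and 0 that of Zscan12. Both calls were lost when only the groups compared were fitted and with a replicate block, and the call over the 3 groups was lost in each of the 9 fits without 1 library.

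At 4 h against 1 h, edgeR and DESeq2 each called 0 members, with 0% of all genes called by edgeR. At an unadjusted p under 0.05, 2 members were lower (Zbtb26 and Zscan12) and 1 higher (Zbtb7c), where 1.25% and 1.33% of all genes were. Groups did not overlap for 3 members that were lower and 2 that were higher at 4 h, against 3.04% and 3.2% of all genes. The 4 h libraries are also those of the choice.

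**Figure D3:**
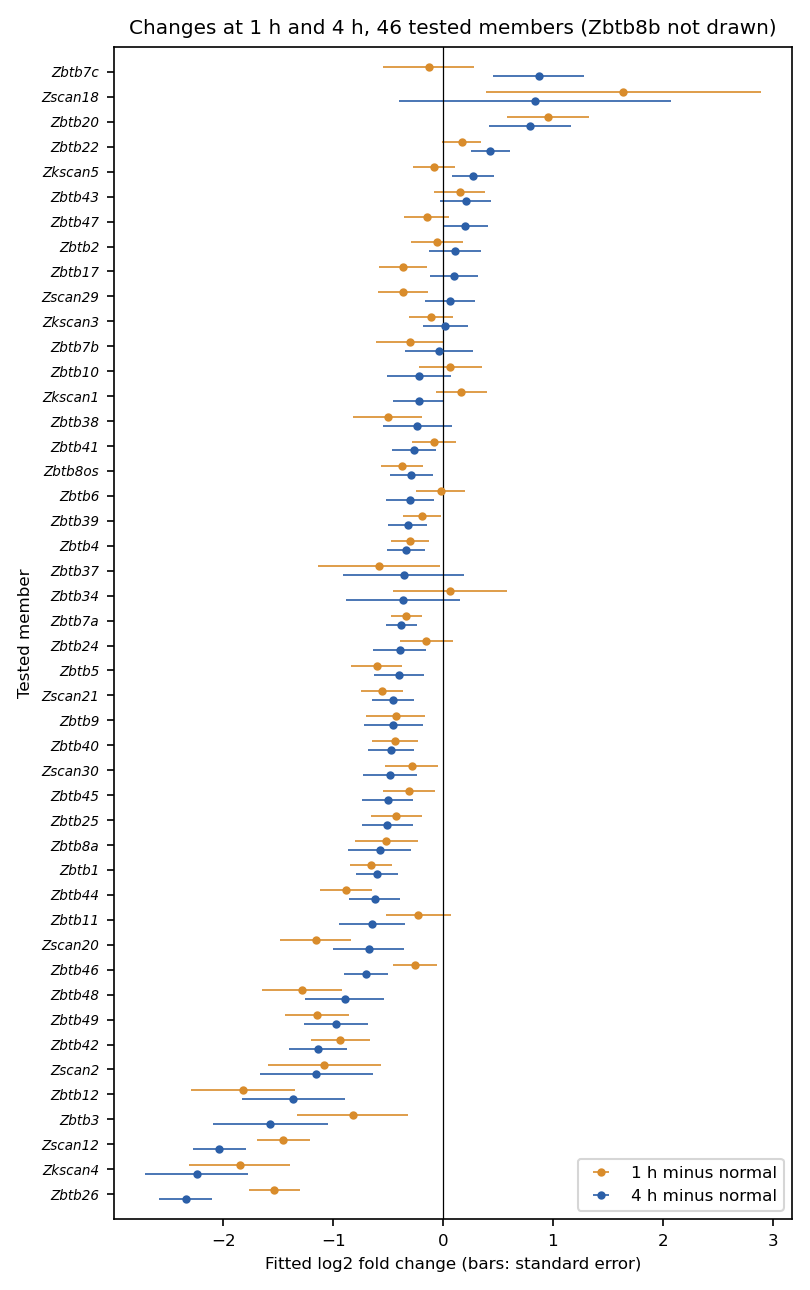
Points are fitted log2 fold changes at 1 h (orange) and 4 h (blue) against normal, and bars are 1 standard error, for 46 tested members in the order of their 4 h value. Zbtb8b is not drawn because its standard error at 1 h was 1.71. The lowest are Zbtb26, Zkscan4 and Zscan12, and most other members lie a little to the left of 0 at both times.

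Zbtb26, a BTB zinc finger gene, had the lowest change of the family at 4 h. It was at 11.2, 12.7 and 14.1 CPM in the normal libraries, at 4.01, 4.48 and 4.61 CPM at 1 h, and at 2.48, 2.16 and 2.84 CPM at 4 h. These levels rest on 174 to 200 counts per normal library, 60 to 75 at 1 h and 26 to 43 at 4 h. The 3 groups did not overlap, each time point lying below the one before. At 1 h the level was 34.5% of normal, a log2 fold change of -1.53 (SE 0.23), which was not called (edgeR adjusted p = 0.117). At 4 h it was 19.7% of normal. From 1 h to 4 h the log2 fold change was -0.81 (SE 0.23, edgeR adjusted p = 0.856).

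The neighbour Zbtb6 had another pattern. It was at 23.1, 21.5 and 25.2 CPM in normal, at 17.1, 29.0 and 22.7 CPM at 1 h, and at 16.9, 19.9 and 19.8 CPM at 4 h. The 1 h libraries lay on both sides of normal, and the 4 h libraries just below it. Its log2 fold change at 1 h was -0.022 (SE 0.22), against -1.53 for Zbtb26. Zbtb6 was chosen for its place beside Zbtb26, after the values were seen. RefSeq places the coding gene Zbtb6l1 over Zbtb6, and Zbtb6l1 was not among the counted genes.

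Zscan12, a SCAN zinc finger gene, was at 18.4, 15.7 and 22.7 CPM in normal, at 7.16, 6.28 and 7.31 CPM at 1 h, and at 5.54, 3.81 and 4.49 CPM at 4 h. As for Zbtb26, the 3 groups did not overlap. At 1 h the level was 36.6% of normal, with a log2 fold change of -1.45 (SE 0.24, edgeR adjusted p = 0.117), and at 4 h it was 24.4% of normal. The log2 fold change from 1 h to 4 h was -0.58 (SE 0.24, edgeR adjusted p = 0.856).

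Zkscan4, which pairs SCAN with zinc fingers, lies in the same stretch of chromosome 17 as Zscan12. Its level was 5.04, 5.98 and 4.28 CPM in normal, 1.47, 1.34 and 1.41 CPM at 1 h, and 0.50, 0.91 and 1.78 CPM at 4 h. All 6 ischemic libraries lay below all normal ones, on 58 to 90 counts per normal library and 6 to 27 per ischemic library. At 1 h the level was 27.7% of normal and the log2 fold change -1.85 (SE 0.46, edgeR adjusted p = 0.210), and at 4 h it was -2.24. RefSeq places uncharacterised genes over Zkscan4 and a noncoding gene over Zbtb26, which were not analysed here.

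Zkscan3, which codes for a repressor of autophagy and lysosome genes, sits next to Zscan12 with no coding gene between them, and 3 coding genes away from Zkscan4. It stood at 35.6, 32.8 and 32.1 CPM in normal, 25.3, 37.0 and 31.0 CPM at 1 h, and 36.6, 38.1 and 27.3 CPM at 4 h. Its groups overlapped throughout. The log2 fold changes were -0.11 (SE 0.20, edgeR adjusted p = 0.793) at 1 h and 0.022 at 4 h, and their sign turned with the scaling, with the nerve genes as a covariate or without single libraries. In both places a member far below normal thus lies beside one whose 1 h libraries overlapped normal.

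**Figure D4:**
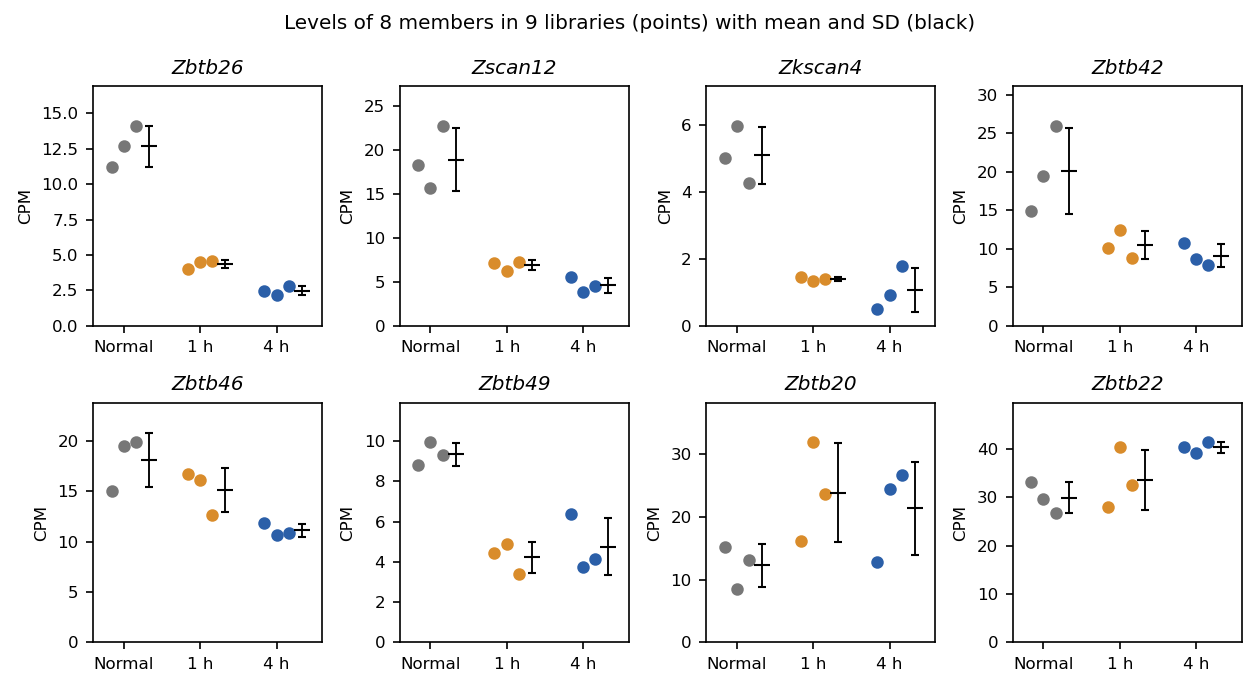
Points are CPM in single libraries, gray for normal, orange for 1 h and blue for 4 h, with the group mean and SD (n = 3) in black, and each panel has its own axis from 0. Zbtb26 and Zscan12 step down from normal to 1 h to 4 h without overlap, Zkscan4, Zbtb42 and Zbtb49 are lower at both times, Zbtb46 is lowest at 4 h, and Zbtb20 and Zbtb22 are the higher members.

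In the next members, which had some of the smallest p at 1 h, the levels at 4 h overlapped those at 1 h. Zbtb49 was at 8.79, 9.93 and 9.31 CPM in normal, at 4.41, 4.88 and 3.38 CPM at 1 h, and at 6.37, 3.73 and 4.16 CPM at 4 h. Its log2 fold change at 1 h was -1.14 (SE 0.29, edgeR adjusted p = 0.210). Zbtb12 was at 3.19, 4.09 and 4.58 CPM in normal, at 1.87, 0.74 and 0.74 CPM at 1 h, and at 1.57, 1.91 and 1.12 CPM at 4 h. In both genes every ischemic library lay below every normal one. Zbtb12 had a log2 fold change of -1.82 (SE 0.47, edgeR adjusted p = 0.210) at 1 h. It overlaps C2, a complement gene, in the RefSeq annotation, and without the strand of counting their reads cannot be told apart, though C2 itself had log2 fold changes of 0.45 and -0.31.

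Zbtb44 was at 54.1, 69.0 and 45.6 CPM in normal, at 33.4, 32.4 and 25.7 CPM at 1 h, and at 38.0, 43.8 and 28.0 CPM at 4 h, again with no overlap with normal. Its log2 fold change at 1 h was -0.88 (SE 0.23, edgeR adjusted p = 0.213). Zbtb48 codes for a protein that binds telomere repeats. Its level was 8.34, 10.6 and 10.1 CPM in normal, 5.22, 3.68 and 3.01 CPM at 1 h, and 7.52, 4.73 and 3.37 CPM at 4 h. The gap to normal was wide at 1 h, with a log2 fold change of -1.28 (SE 0.36, edgeR adjusted p = 0.224), and narrow in replicate 1 at 4 h.

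Zscan20, a SCAN gene, was at 10.2, 9.71 and 11.0 CPM in normal, at 4.95, 5.28 and 3.62 CPM at 1 h, and at 7.94, 7.63 and 3.83 CPM at 4 h. Every ischemic library lay below normal, and the log2 fold change at 1 h was -1.16 (SE 0.33, edgeR adjusted p = 0.224). The 7 tested Zscan genes together summed to 72.3 to 82.3 CPM in normal, 50.1 to 54.7 CPM at 1 h and 48.2 to 54.6 CPM at 4 h, with normal apart from both ischemic groups. By subfamily, the median log2 fold changes at 1 h and 4 h were -0.32 and -0.37 for 36 Zbtb genes, -0.55 and -0.48 for 7 Zscan genes, and -0.094 and -0.099 for 4 Zkscan genes.

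The less abundant members, among them Zbtb26 and Zscan12, had the lower median. Split at a mean of 14.8 CPM over all libraries, the 23 members below had medians of -0.58 at 1 h and -0.50 at 4 h, and the 24 members at or above it had -0.21 and -0.25. Without Zbtb26 and Zscan12 the 21 members left below it had medians of -0.52 and -0.48. Split by the normal libraries alone, also without those genes, 22 less abundant members had medians of -0.40 and -0.43, and 23 more abundant ones -0.26 and -0.30. The summed level of the less abundant set was 200.2 to 211 CPM in normal, 127 to 141 CPM at 1 h and 122 to 136 CPM at 4 h, with normal well apart. That of the more abundant set was 961 to 1064 CPM in normal, 769 to 978 CPM at 1 h and 822 to 938 CPM at 4 h, where 1 h overlapped normal. These splits were chosen after seeing the data, and the difference between the sets was not tested.

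Zbtb42, which is tied to skeletal muscle, was at 14.9, 19.4 and 25.9 CPM in normal, at 10.2, 12.5 and 8.85 CPM at 1 h, and at 10.7, 8.71 and 7.92 CPM at 4 h. No ischemic library reached the lowest normal one. Its log2 fold change was -0.93 at 1 h (SE 0.27, edgeR adjusted p = 0.224) and -1.14 at 4 h. Zbtb3 was low throughout, at 1.55 to 2.07 CPM in normal, 0.60 to 1.40 CPM at 1 h and 0.33 to 0.91 CPM at 4 h, and its log2 fold change at 4 h was -1.57. It overlaps Polr2g, a subunit gene of RNA polymerase II, which had log2 fold changes of -0.45 and -0.49, and reads of the pair cannot be told apart.

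Zbtb46 is known for classical dendritic cells and for endothelium. It was at 15.0, 19.5 and 19.9 CPM in normal, at 16.7, 16.1 and 12.7 CPM at 1 h, and at 11.9, 10.7 and 10.9 CPM at 4 h. The 4 h libraries lay below all others, while 1 h and normal overlapped. The log2 fold change was -0.26 at 1 h (SE 0.20, edgeR adjusted p = 0.490), -0.70 at 4 h against normal, and -0.44 at 4 h against 1 h (SE 0.20, edgeR adjusted p = 0.856). Of 11 tested endothelial genes, 10 were lower at 1 h and 10 at 4 h against normal, with medians of -0.44 and -0.52 on the log2 scale. Their summed level was 1030 to 1844 CPM in normal, 810 to 1349 CPM at 1 h and 847 to 1167 CPM at 4 h, with overlap and with none at 0 in any library. From 1 h to 4 h their median was -0.038. No list of dendritic cell genes was examined, and macrophage genes cannot stand in for one. All 9 tested macrophage genes were lower at 4 h, with medians of -0.68 against normal and -0.60 against 1 h. Their summed level was 49.3 to 144 CPM in normal, 75.3 to 143 CPM at 1 h and 35.8 to 86.9 CPM at 4 h, with overlap and none at 0. The part of either list in the level of Zbtb46 was not tested.

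Zbtb1, which is needed for lymphocyte development, was at 33.5, 36.6 and 33.5 CPM in normal, at 23.6, 24.4 and 17.8 CPM at 1 h, and at 19.5, 26.4 and 22.3 CPM at 4 h. Both ischemic groups lay below normal, with log2 fold changes of -0.65 (SE 0.19, edgeR adjusted p = 0.232) at 1 h and -0.60 at 4 h. Lymphocyte genes were near the limit of detection, with 3 of 12 tested and summed levels of 7.01 to 35.4 CPM in normal, 9.02 to 19.0 CPM at 1 h and 4.96 to 10.6 CPM at 4 h. Their part in Zbtb1 was not tested.

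Among the members with the best known roles, Zbtb7a stood apart from normal at both times by a small step. It codes for LRF, a repressor of fetal globin genes. Its level was 107, 93.4 and 105 CPM in normal, 81.6, 85.4 and 75.3 CPM at 1 h, and 74.4, 83.4 and 77.3 CPM at 4 h. The highest ischemic library was below the lowest normal one, and the log2 fold change at 1 h was -0.33 (SE 0.14, edgeR adjusted p = 0.293).

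Zbtb17 codes for Miz-1, a partner of MYC in repression. It was at 27.2, 29.8 and 27.7 CPM in normal, at 20.3, 26.2 and 19.2 CPM at 1 h, and at 37.9, 29.7 and 23.2 CPM at 4 h. The 1 h libraries were below normal and the 4 h libraries on both sides of it. The log2 fold changes were -0.37 (SE 0.22, edgeR adjusted p = 0.380) at 1 h and 0.10 at 4 h, where the sign turned when libraries were scaled by total count alone or when 4 h replicate 1 was left out.

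Zbtb4 and Zbtb38 code for relatives of Kaiso that read methylated DNA. Zbtb4 was at 181, 196 and 204 CPM in normal, at 143, 185 and 143 CPM at 1 h, and at 143, 167 and 150 CPM at 4 h. Replicate 2 at 1 h reached the normal range and the 4 h libraries did not. Zbtb38 was at 88.9, 179 and 150 CPM in normal, at 84.3, 129 and 82.0 CPM at 1 h, and at 141, 124 and 90.1 CPM at 4 h, with overlap at both times. At 1 h the log2 fold changes were -0.30 (SE 0.17, edgeR adjusted p = 0.363) for Zbtb4 and -0.50 (SE 0.31, edgeR adjusted p = 0.395) for Zbtb38.

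Fewer members had higher levels in the ischemic libraries. Zbtb20, a repressor of alpha-fetoprotein in the liver, was at 15.2, 8.54 and 13.1 CPM in normal, at 16.2, 31.9 and 23.6 CPM at 1 h, and at 12.8, 24.5 and 26.7 CPM at 4 h. The 1 h libraries lay just above normal, while 4 h replicate 1 lay within it. The log2 fold change was 0.96 (SE 0.37, edgeR adjusted p = 0.284) at 1 h and 0.80 at 4 h.

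Zbtb22 was at 33.2, 29.6 and 26.8 CPM in normal, at 28.1, 40.3 and 32.5 CPM at 1 h, and at 40.4, 39.1 and 41.3 CPM at 4 h. The 4 h libraries were close together and above all normal ones, with a log2 fold change of 0.43. Zbtb7c was at 6.94, 12.9 and 18.5 CPM in normal, at 12.0, 15.9 and 7.19 CPM at 1 h, and at 29.6, 22.2 and 18.4 CPM at 4 h. It was higher at 4 h than at 1 h in every library, with a log2 fold change of 1.00 (SE 0.42, edgeR adjusted p = 0.856), but 1 normal library reached the 4 h range. Zscan29 was at 9.52, 9.93 and 11.7 CPM in normal, at 9.03, 7.55 and 7.62 CPM at 1 h and at 13.5, 9.87 and 9.24 CPM at 4 h. Its 1 h libraries lay below all others, and the log2 fold change was 0.43 at 4 h against 1 h (SE 0.23, edgeR adjusted p = 0.856) but 0.063 at 4 h against normal.

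Zkscan1, whose transcript also gives rise to a circular RNA that gene counts cannot set apart, was at 46.5, 34.2 and 31.5 CPM in normal, at 41.5, 38.5 and 46.0 CPM at 1 h, and at 26.7, 27.9 and 41.7 CPM at 4 h. Groups overlapped at both times. Its log2 fold change at 1 h was 0.17 (SE 0.23, edgeR adjusted p = 0.713), and -0.15 with the nerve genes as a covariate.

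The 22 tested members not named by the rule had log2 fold changes between -1.08 and 0.15 at 1 h, where 19 were lower, leaving aside Zbtb6 and Zscan18. At 4 h they lay between -1.15 and 0.27, with 18 lower. Zscan2 was the lowest of them at both times. The 1 h libraries of 4 of them (18.2%) lay all below normal, where 13.5% of all genes did, and the 4 h libraries of 8 (36.4%), beside 10.8%. The naming rule had already taken out up to 8 non-overlapping lower members with the smallest p at each time. The shares of the rest are therefore not comparable with those of all genes. None passed the test at either time. At an unadjusted p under 0.05, 2 were lower at 1 h and 1 at 4 h, where 8.67% and 7.35% of all genes were. Among these, Zscan21 overlaps Zfp113, which had log2 fold changes of -1.18 and -1.64.

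The libraries differed widely in genes of sympathetic neurons, whose fibers run in the wall of this artery. The 24 neuron genes summed to 766, 57.7 and 469 CPM in the normal libraries, to 10491, 1151 and 10717 CPM at 1 h, and to 70.4, 71.5 and 10571 CPM at 4 h. Thus 1 h replicates 1 and 3 and 4 h replicate 3 stood far above the rest, and in normal replicate 2 there were 9 of these genes at 0.

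Zscan18 was at 4.87, 0.07 and 1.48 CPM in normal, at 8.76, 3.21 and 8.29 CPM at 1 h, and at 0.74, 1.33 and 9.44 CPM at 4 h. Zbtb8b was at 0.22, 0 and 0.15 CPM in normal, at 1.61, 0.33 and 1.78 CPM at 1 h, and at 0, 0 and 2.05 CPM at 4 h, with at most 31 counts. Both had their highest levels in the libraries with the highest neuron genes. Zbtb8b had a log2 fold change of 3.19 at 1 h (SE 1.71, edgeR adjusted p = 0.341), and of -0.038 with the mean level of the neuron and Schwann cell genes as a covariate. For Zscan18 the values were 1.64 (SE 1.25, edgeR adjusted p = 0.480) and -0.11. Zscan18 was named here after its values were seen.

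Zbtb26 was at 2.48 and 2.16 CPM in the 4 h libraries with few neuron counts and at 2.84 CPM in the one with many. The covariate, the mean log2 CPM of the neuron and Schwann cell genes, was 0.68 to 5.31 in normal and 5.43 to 7.47 at 1 h. As these ranges do not overlap, the fit cannot tell nerve content from ischemia at 1 h. With the covariate, the log2 fold changes at 1 h were -1.60 for Zbtb26, -1.53 for Zscan12 and -2.26 for Zkscan4, at least as far from 0 as without it. At 1 h the log2 fold changes of 31 of the 47 members were closer to 0 with the covariate and those of 16 farther from it, and 10 changed sign. Those closer to 0 included Zbtb44 (-0.55), Zbtb48 (-0.90), Zscan20 (-0.81), Zbtb38 (-0.0046) and Zbtb17 (-0.092). The median of the family at 1 h was -0.25 with the covariate and -0.33 without it. The part of the neuron genes in these values was not tested further.

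**Figure D5:**
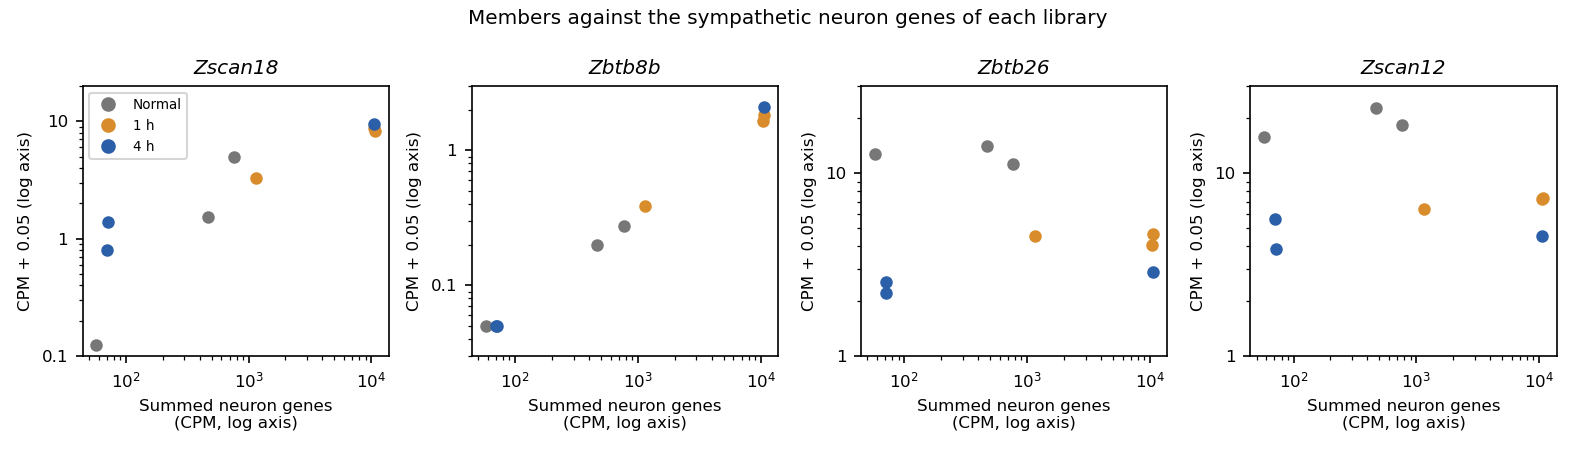
Each point is 1 library, with the summed CPM of 24 sympathetic neuron genes on the horizontal log axis and the member's CPM plus 0.05 on the vertical log axis, gray for normal, orange for 1 h and blue for 4 h. Zscan18 and Zbtb8b are highest in the 3 libraries at 10491 to 10717 CPM of neuron genes, while Zbtb26 and Zscan12 are lower at 4 h than at 1 h there too, and no normal library lies at that neuron content.

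A further list held 24 genes with a BTB or SCAN domain under other names, not all with zinc fingers, of which 18 were tested. At 1 h, 13 were lower and 5 higher, with a median log2 fold change of -0.48, and at 4 h 11 were lower and 7 higher, with a median of -0.25. EdgeR called 0 of them at either time, with 6 lower and 0 higher at an unadjusted p under 0.05 at 1 h, and 5 lower and 1 higher at 4 h. These are 33.3% lower at 1 h, where 8.67% of all genes were, and 27.8% lower and 5.56% higher at 4 h, beside 7.35% and 5.07%. DESeq2 called 2 at 1 h, each lower, and 4 at 4 h, 3 lower and 1 higher. Of all 15482 genes it called 702 and 606. The smallest p at 1 h was that of Patz1, a BTB zinc finger gene, with levels of 29.8 to 30.7 CPM in normal and 14.8 to 21.0 CPM at 1 h and a log2 fold change of -0.74 (SE 0.19, edgeR adjusted p = 0.210). At 4 h it was that of Zfp397, a SCAN zinc finger gene, at 14.2 to 15.8 CPM in normal and 4.38 to 7.05 CPM at 4 h, with a log2 fold change of -1.29 (SE 0.25, edgeR adjusted p = 0.0998). In both, the groups did not overlap. Bcl6, a BTB zinc finger gene, went the other way, at 38.0 to 46.5 CPM in normal and 70.8 to 111 CPM at 4 h. Its log2 fold change at 4 h was 1.23 (SE 0.36, edgeR adjusted p = 0.219). At 1 h, 9 genes of the list were lower and 1 higher without overlap (50% and 5.56%), where 13.5% and 12.8% of all genes were. At 4 h, 4 were lower and 2 higher (22.2% and 11.1%), beside 10.8% and 7.93% of all genes. Pgbd1, higher at both times, had at most 17 counts in a normal library. The summed level of the list was 458 to 498 CPM in normal and 436 to 539 CPM at 4 h.

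The corepressors and partners on which these proteins act had no such shift at 4 h. Of 26 genes listed, 25 were tested, with median log2 fold changes of -0.18 at 1 h and 0.037 at 4 h against normal. EdgeR called 0 at either time, with 3 lower and 2 higher at an unadjusted p under 0.05 at 1 h, and 1 lower and 2 higher at 4 h. At 1 h these are 12% and 8%, near the 8.67% and 7.98% of all genes, and at 4 h 4% and 8%, beside 7.35% and 5.07%. DESeq2 called 2 at 1 h and 0 at 4 h, out of its 702 and 606 calls over all genes. The smallest p at both times was that of Bcorl1, a relative of the corepressor Bcor, which was at 23.0 to 27.3 CPM in normal, 8.29 to 15.5 CPM at 1 h and 9.31 to 16.9 CPM at 4 h. Its log2 fold change was -1.09 (SE 0.30, edgeR adjusted p = 0.218) at 1 h and -0.91 (SE 0.30, edgeR adjusted p = 0.271) at 4 h.

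Zbtb16, the member left out by the symbol rule, was higher in every ischemic library than in any normal one. It codes for PLZF, a target of the glucocorticoid receptor, and was at 3.14, 48.2 and 13.9 CPM in normal, at 74.3, 199 and 87.2 CPM at 1 h, and at 142, 139 and 121 CPM at 4 h.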

How the data were processed

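Counts of 9 SMA libraries were analysed, 3 per group. The authors deposited raw counts per gene symbol, 1 column per sample, and no column lacked a sample. HISAT2 is named in the submitters' processing notes without version or role. The counting program, the use of strand and the build are not given in the sources used here. The paper describes Agilent microarrays, but the deposited values are counts and were tested as such.

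Genes were filtered with filterByExpr, scaled by TMM and fitted with edgeR 4.0.16 (R 4.3.3) over the 9 libraries together, with a term for group alone. Calls needed an adjusted p under 0.05 (Benjamini-Hochberg, 15482 genes) and a fold change over 1.5. SE is the log2 fold change over the square root of F. DESeq2 1.42.0 was the alternative tool. Both were tested on simulated data. P-values set the difference between groups against the spread between these libraries. The labels do not settle whether animals were shared between groups, and the fit treats the libraries as unpaired.

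Members, lists and tests were chosen with earlier results of these data known. Named members were Zbtb26, Zscan12, any called member, up to 8 members each way at 1 h and at 4 h against normal (3 at 4 h against 1 h) with the smallest p among those whose groups did not overlap, and members of known role. Of 53 members, 52 matched the RefSeq gene table, used for neighbors and overlaps. Noncoding genes overlapping members were mostly not analysed here, nor were coding ones without counts, such as Zbtb6l1.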

Additional observations from a re-analysis of the deposited data

How the results depend on the processing

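The 7 other fits and the 9 fits without 1 library each left the direction of most member values as it was, but not the calls. At 1 h against normal, DESeq2 called 9 members (Zbtb1, Zbtb12, Zbtb26, Zbtb44, Zbtb48, Zbtb49, Zkscan4, Zscan12 and Zscan20) where edgeR called 0 in its other fits. At 4 h against normal, DESeq2 called 4 (of 606 calls over all genes), the fit with no filter 1, the fit of only the groups compared 0 and the fit with a replicate block 0, where 2 were called. Leaving out 1 library gave 0 to 1 there. Zbtb26 stayed called only without 1 h replicate 2 and without 4 h replicate 3, and Zscan12 lost its call in all 9 of these fits. Over the 3 groups, DESeq2 called 6 (of 669 over all genes) and the fit with the nerve covariate 2 (of 31), against 1. At 4 h that fit called 124 of all genes. Relative log expression scaling, library size only, no filter and the replicate block each gave 0, and leaving out a library gave 0 to 0. Scaling by library size only shifted the median of all genes by -0.18 at 4 h against normal and by -0.20 at 4 h against 1 h, and the medians of the members were then -0.55 and -0.24. Correlations of deviations between same-numbered libraries ran from -0.65 to 0.66, with 4 of them over 0.1. Those of replicate 2 were 0.42, 0.28 and 0.62. With 3 libraries per group that differ widely in neuron genes, these values cannot settle whether replicate numbers pair the samples.

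With the nerve covariate, 10 of the 47 tested members changed sign at 1 h against normal, 0 at 4 h against normal and 12 at 4 h against 1 h. The covariate did not overlap between normal and 1 h, so there that fit cannot tell nerve content from ischemia. At 1 h Zbtb8b was at -0.038, Zkscan1 at -0.15 and Zkscan3 at 0.066. With library size only at 4 h, Zbtb17 was at -0.11 and Zkscan3 at -0.18. Without 1 library, Zkscan3 ranged from -0.25 to 0.022 at 1 h and from -0.065 to 0.16 at 4 h, and Zbtb17 at 4 h from -0.12 to 0.26. The cause was not tested. Depth limits the low members, where counting error is large, and the largest standard errors at 1 h were those of Zbtb8b (1.71) and Zscan18 (1.25).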
